A study of Homo sapiens with 4 samples.

Results

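Collagens are the structural proteins of the extracellular matrix, and the genes analysed here are the 44 protein-coding genes of GENCODE release 44 whose symbol is COL, a number, A and a number, of 20033 protein-coding genes in all. The data are ATAC-seq peak lists, in which the Tn5 transposase marks accessible DNA by inserting sequencing adapters into it. The cells were pancreatic progenitors derived from MEL1, a human embryonic stem cell line that carries a GFP reporter at the insulin gene according to the study's methods. Both groups grew in the same basal medium, EF6, which holds B27, EGF, bFGF and 616452, an inhibitor of the TGFβ receptor. For 7 days the control group received DMSO, the solvent, and the treated group received 1 μM I-BET151, a small molecule that displaces BET bromodomain proteins from acetylated histones. Each group had 2 libraries of 50000 cells, and the labels do not say whether these came from separate cultures, so the spread between them may be technical.

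Collagen chains assemble into triple helices whose architecture differs between types. Fibrillar collagens build the cross-striated fibres of connective tissue, FACIT collagens sit on the surface of those fibres, type IV collagen forms the sheet of basement membranes, and type VI forms beaded filaments. In the pancreas, epithelial cells lie on a type IV basement membrane, whereas the interstitial fibrillar collagens come mostly from mesenchymal and stellate cells. The assay reads the accessibility of chromatin at these genes and not their RNA. In a bulk sample, fewer cells with an accessible site and less accessibility per cell cannot be told apart.

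Peaks of the 4 lists were merged into 164301 regions, of which 477 lay within 5 kb of a collagen gene body and 96884 within 5 kb of any protein-coding gene. All 44 collagens had at least 1 region. A region was called gained when both I-BET151 lists and neither DMSO list held a peak there, and lost in the reverse case. The fold of a peak is its pileup over the local background, and its percentile is its rank by fold within its own list, from 0 where no peak was called to 100 for the strongest peak. The locus score of a gene is the mean percentile over its regions. The lists differed in size, with 82568 and 38295 peaks for DMSO replicates 1 and 2 and 84995 and 111324 peaks for I-BET151 replicates 1 and 2. Depth was not measured but estimated from the lowest background of each list, with its shortest peak taken as the fragment length. The estimates were 38.7, 36.6, 12.5 and 16.0 M reads in that order, so the I-BET151 libraries were the shallower ones. The order of the 2 DMSO libraries rests on the fragment length assumed, so it was not read against their numbers of peaks. No peak was shorter than 200 bp in the replicate 1 lists, 233 bp in DMSO replicate 2 or 256 bp in I-BET151 replicate 2. Over the 25627 regions called in all 4 lists, the pileup per M reads was higher with I-BET151 by a median of 1.90 on the log2 scale, and by 1.80 over the 44 collagen regions among them.

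Collagen loci held a larger share of regions called with I-BET151 alone than all loci did, and a larger share of promoters of this kind at the deposited threshold. Of the 477 regions, 123 were gained, 25.8% against 16.4% of all regions near protein-coding genes, and 17 were lost, 3.56% against 2.20%. For lost regions the order was opposite with equal numbers of the strongest peaks from each list, at 4.40% against 5.33%. A peak in all 4 lists was found at 44 regions, 9.22% against 19.1%. At the promoter, taken as 1 kb on either side of the start of the canonical transcript, 14 of 44 collagens had a gained peak, 31.8% against 7.07% of all protein-coding genes, and 9 had a peak in all 4 lists, 20.5% against 53.5%. The promoter excess was absent with a −log10 p of at least 10, at 11.4% against 11.3%, and opposite with equal numbers of the strongest peaks from each list, at 0 collagens against 2.73% of all genes. COL6A6, a type VI chain, was the single collagen with a lost promoter, and 0.394% of all genes had one. These shares are descriptions, and no test of the list was made.

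Sequences at the starts of some genes with a gained promoter are shown first. At these promoters a peak within 1 kb of the start appeared in the I-BET151 lists alone, and it need not cover the bases shown. The gained COL9A2 region ended at position 40317277, with its summit in intron 1, 205 bp downstream of the start. No base shown for COL9A2 lies in that region. COL4A1 and COL4A2, the chains of the basement membrane network found in nearly all tissues, are transcribed in opposite directions from starts that lie 126 bases apart, and a single gained region covers both starts. The stretch between the starts is given on the plus strand of hg38, and the bases of COL9A2, COL12A1 and COL4A3 are the 250 before the start in the RefSeq table of GRCh38.p14, on the strand of the gene. Capitals mark a CCAAT box (CCAAT) or a GC box (GGGCGG), each searched on both strands. Of 15345 protein-coding genes matched in the RefSeq promoter table, 36.6% held the first and 59.2% the second in the window from 250 bases before to 50 after the start. The COL4A1/COL4A2 stretch held 1 of each and its GC content was 80.2%, the COL9A2 stretch held 3 GC boxes, the COL4A3 stretch 2 and the COL12A1 stretch 1. A TATA box (TATAAA), found in 9.63% of the promoters, was in none of these 4 stretches. The stretches are shorter than the window used for these shares and come from only some of the gained promoters. The 1415 bases between the starts of COL4A6 and COL4A5, not shown, held 3 TATA boxes, 7 CCAAT boxes and 1 GC box. Their GC content was 40.6%.
COL4A1/COL4A2, chr13:110307158-110307283: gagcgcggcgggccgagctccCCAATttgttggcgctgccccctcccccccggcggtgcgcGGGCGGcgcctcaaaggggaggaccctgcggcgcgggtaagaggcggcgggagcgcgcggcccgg
COL9A2, chr1:40317287-40317536, minus strand: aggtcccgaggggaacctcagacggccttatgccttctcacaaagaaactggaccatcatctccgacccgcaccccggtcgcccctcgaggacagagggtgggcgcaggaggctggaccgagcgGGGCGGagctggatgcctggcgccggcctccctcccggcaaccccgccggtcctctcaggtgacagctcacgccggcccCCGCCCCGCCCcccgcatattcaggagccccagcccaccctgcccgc
COL12A1, chr6:75206054-75206303, minus strand: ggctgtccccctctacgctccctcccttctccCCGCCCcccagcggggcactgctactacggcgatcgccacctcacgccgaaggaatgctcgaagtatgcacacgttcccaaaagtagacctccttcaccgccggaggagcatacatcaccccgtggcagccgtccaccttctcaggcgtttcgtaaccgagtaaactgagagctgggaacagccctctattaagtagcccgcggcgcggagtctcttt
COL4A3, chr2:227164374-227164623, plus strand: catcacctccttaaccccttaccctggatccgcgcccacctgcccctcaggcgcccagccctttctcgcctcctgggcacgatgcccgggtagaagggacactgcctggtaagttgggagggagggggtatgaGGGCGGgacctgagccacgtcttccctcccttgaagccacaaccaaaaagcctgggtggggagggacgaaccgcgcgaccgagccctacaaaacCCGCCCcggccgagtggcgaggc

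The 5 gained regions whose lower fold of the 2 I-BET151 libraries was highest lay away from promoters, and 50 bases on either side of their summits are shown next on the plus strand of hg38. Capitals here and in the sequences that follow mark a match on either strand. The letters searched were TGANTCA for AP-1, AGATAA for the factors of the GATA family, TGTTTAC for FOXA factors, ATTGAT for ONECUT factors, GGAATG for TEAD factors, CAGCTG for an E-box, TAATTA for the homeobox core, and the CTCF consensus. Overlapping matches were each kept. A match describes letters and does not show that the factor was bound. COL9A1 held a TEAD match and COL21A1 an AP-1 match, and the other 3 held no match within these bases.
COL24A1 intron 32, chr1:85884783-85884883: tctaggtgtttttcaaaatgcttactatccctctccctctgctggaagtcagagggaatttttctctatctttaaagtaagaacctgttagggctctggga
COL4A3 intron 41, chr2:227295919-227296019: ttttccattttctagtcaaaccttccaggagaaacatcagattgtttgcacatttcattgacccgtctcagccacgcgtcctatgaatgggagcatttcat
COL9A1 intron 14, chr6:70270735-70270835: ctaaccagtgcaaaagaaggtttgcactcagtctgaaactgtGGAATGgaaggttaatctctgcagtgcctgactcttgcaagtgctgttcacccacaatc
COL4A2 intron 20, chr13:110456057-110456157: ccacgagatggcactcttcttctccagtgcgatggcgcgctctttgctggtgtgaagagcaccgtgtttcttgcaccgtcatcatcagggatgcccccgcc
COL21A1 body, upstream of the canonical start, chr6:56370197-56370297: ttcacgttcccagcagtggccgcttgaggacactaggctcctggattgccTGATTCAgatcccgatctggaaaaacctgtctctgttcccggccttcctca

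Among these, the COL24A1 region had folds of 13.0 and 13.9 in I-BET151 replicates 1 and 2 at pileups of 24 and 34 reads, which placed it at percentiles 96.6 and 96.2. COL4A3 intron 41 reached folds of 10.9 and 11.4, and COL9A1 intron 14 reached 10.5 and 10.2. COL4A2 intron 20 had 9.49 and 9.99, and the COL21A1 region had 8.98 and 9.02. All 5 lay between percentiles 78.3 and 96.6 of the I-BET151 lists, and the deeper DMSO libraries had no peak there. Over the 123 gained regions the lower of the 2 folds had a median of 5.09 and a range from 2.95 to 13.0, and 40 of 44 genes (90.9%) had at least 1 of them, against 45.6% of all protein-coding genes with a region. Collagens had a median of 8.50 regions and all genes 3.00, which raises such a count.

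The 14 genes with a gained promoter were COL1A2 of the fibrillar class, COL9A1, COL9A2 and COL12A1 of the FACIT class, COL4A1 to COL4A5 of type IV, COL8A1, which forms hexagonal networks, COL6A1 and COL6A2 of type VI, the transmembrane COL13A1 and COL18A1, the source of endostatin. Their folds ran from 3.44 to 6.52 in I-BET151 replicate 1 and from 3.57 to 9.30 in replicate 2, at pileups of 8 to 23 and 12 to 62 reads. At the shared COL4A1/COL4A2 promoter the folds were 3.44 and 3.88, at the shared COL4A3/COL4A4 promoter 5.74 and 4.74, and at COL1A2 4.81 and 4.25. COL4A5 had the highest fold in replicate 1, 6.52, with 5.65 in replicate 2, and COL6A1 the highest in replicate 2, 9.30, with 4.95 in replicate 1. COL4A3 and COL4A4 have their starts 418 bases apart and COL4A5 and COL4A6 1415 bases apart, so these pairs share promoter windows and do not count as independent loci. Of the 26 collagens with no promoter peak in either DMSO list, 14 (53.8%) had one in both I-BET151 lists, against 1416 of 7482 protein-coding genes (18.9%). These gained peaks were of moderate strength, and the count depended on how many peaks of each list were kept. With a −log10 p of at least 10 it was 5 collagens, and with equal numbers of peaks it was 0. Leaving out a library loosens the rule for a gained peak, so the count could hardly fall. It was then between 15 and 18.

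The 9 collagen promoters with a peak in all 4 lists were COL1A1, COL5A1, COL5A2 and COL11A1 of the fibrillar class, COL14A1, COL19A1 and COL21A1 of the FACIT class, COL4A6 and COL25A1. At COL25A1, a transmembrane collagen found in amyloid plaques, the folds were 5.52 and 6.17 with DMSO and 10.6 and 13.2 with I-BET151. COL5A1, which sets the diameter of type I fibrils, had 3.33 and 3.54 against 8.02 and 11.2, and COL1A1, the main chain of type I collagen, had 3.26 and 3.22 against 7.35 and 9.97. COL21A1 had 5.06 and 5.13 against 10.3 and 11.6, and COL19A1 had 5.51 and 5.37 against 10.6 and 11.0. In all 9 both I-BET151 folds exceeded both DMSO folds, with the closest values at COL11A1, where they were 5.95 and 4.31 against 6.20 and 8.05. Each fold is that of the strongest peak in the promoter window, which need not be the same region in each library. At COL4A6 the folds were 4.14 and 4.81 against 6.52 and 6.41, and the 6.52 is also the value at the gained promoter of COL4A5. Folds are relative to each library's own background, and the median fold over a whole list was 3.88 and 4.08 with DMSO and 5.56 and 6.03 with I-BET151, so percentiles are used below.

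By locus score, 32 of 44 collagens had both I-BET151 libraries above both DMSO libraries, 72.7% against 50.8% of the 18097 protein-coding genes with a region. None had both below, against 4.40% of those genes, and 12 overlapped. The median score over the collagens was 16.0 and 3.26 in DMSO replicates 1 and 2 and 22.2 and 31.5 in I-BET151 replicates 1 and 2, which compares with 29.6, 16.4, 32.4 and 40.6 over all genes. The median collagen score was thus below the median gene score in each library. A region without a peak in a library counts as 0 in the score. Collagens had a median of 8.50 regions against 3.00, and 8.18% of their regions lay at promoters of protein-coding genes against 15.3%. Whether this bears on the scores or on the share of higher genes was not tested. The median of the gene-wise difference of means was 17.9 percentile points over the collagens and 10.6 over all genes. For a single gene, 2 against 2 libraries cannot give a two-sided exact permutation p below 0.33. Library pairs with the same number did not give the same count, since 32 collagens were higher with I-BET151 and 11 lower in the replicate 1 pair (median 7.38), against 43 higher and 0 lower in the replicate 2 pair (median 26.2). DMSO replicate 1 scored above DMSO replicate 2 at 38 of 44 genes. Without DMSO replicate 2, which loosens the rule for a lower score, the count of genes with lower scores rose from 0 to 7. With equal numbers of peaks per list, 14 of the 37 collagens that kept a region were higher and 6 lower. For these pair and setting counts the shares over all genes were not computed.

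**Figure D1:**
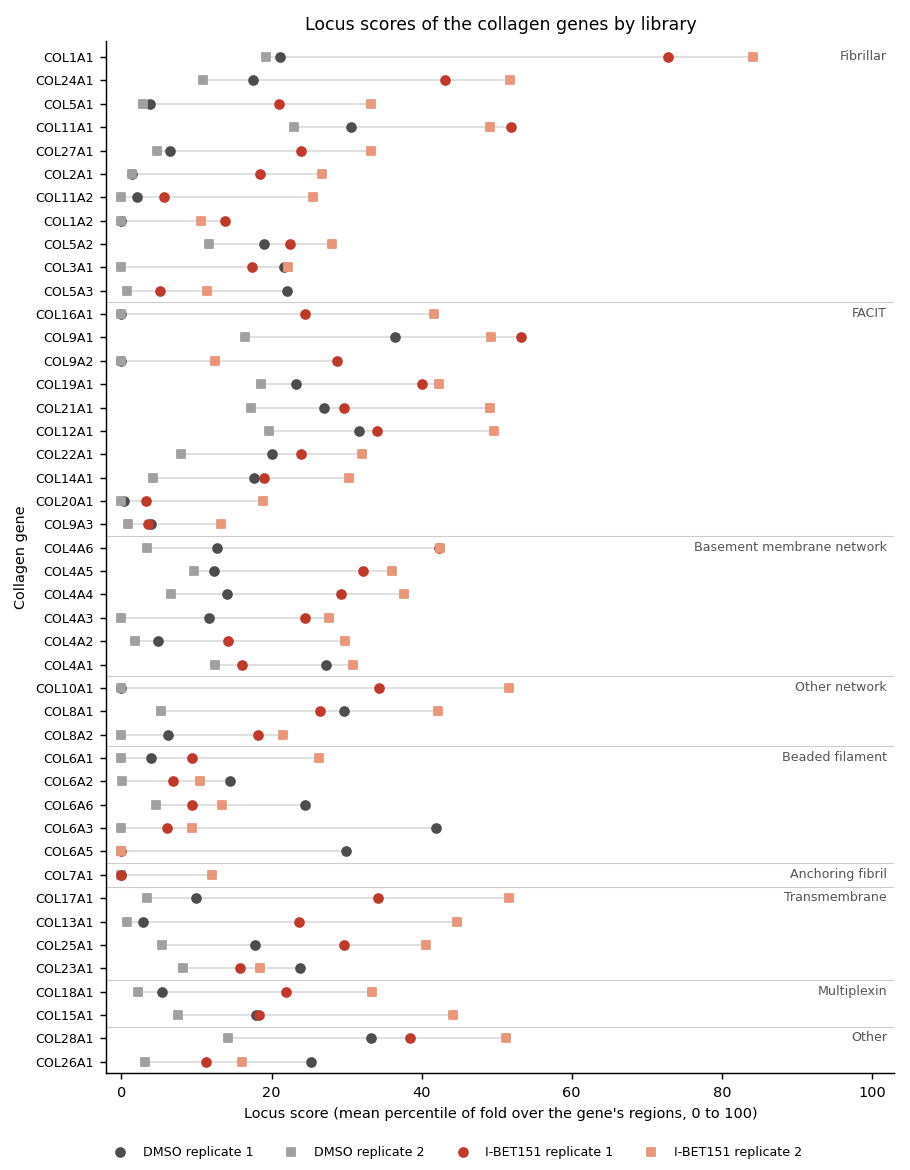
Locus scores (mean percentile of fold, 0 to 100) of the 44 collagen genes, grouped by structural class and ordered within it by the difference between conditions, with 1 point per library. Both I-BET151 points lie to the right of both DMSO points at 32 genes, and DMSO replicate 1 lies furthest right at most type VI collagens.

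The 11 fibrillar collagens, which form the fibres of bone, cartilage, skin and vessel walls, included 9 with separate, higher scores under I-BET151, and their median difference was 21.2 points. COL24A1 scored 17.5 and 10.9 with DMSO and 43.1 and 51.8 with I-BET151, and 5 of its 11 regions were gained. COL5A1 scored 3.75 and 2.86 against 21.0 and 33.2. COL11A1, a cartilage collagen, scored 30.6 and 23.0 against 51.9 and 49.1, although with equal numbers of peaks its difference turned to −5.54 from 23.6. These loci held 8 to 11 regions each, whereas COL1A1 had a single region. That region covers the first intron and the promoter, and its percentile was 21.1 and 19.2 with DMSO and 72.8 and 84.1 with I-BET151. Its pileup, not scaled by depth, was 33 and 32 reads against 24 and 59. COL5A2, a partner of COL5A1 and the fibrillar gene with the most regions, had 20 regions and scored 19.0 and 11.6 against 22.5 and 28.0. COL1A2, the second chain of type I collagen, had no DMSO peak at any of its 3 regions and scored 13.8 and 10.6 with I-BET151. Scores overlapped between conditions at COL3A1, where they were 21.7 and 0 against 17.4 and 22.2, and at COL5A3, where they were 22.0 and 0.797 against 5.12 and 11.4.

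Of the 10 FACIT collagens, 9 were higher and the median difference was 16.7 points. COL16A1 had no DMSO peak and scored 24.5 and 41.6 with I-BET151. COL9A1, a cartilage collagen, scored 36.4 and 16.5 against 53.2 and 49.2, and COL9A2, its partner chain, had 2 regions, both gained, with scores of 28.7 and 12.4. COL12A1, which associates with type I fibrils, scored 31.6 and 19.6 against 34.0 and 49.7. The scores of COL12A1 left a gap of only 2.40 points between conditions, smaller than the distance between its replicates, and the gap was also narrow at COL14A1, with 17.7 and 4.26 against 19.0 and 30.3. COL19A1 scored 23.3 and 18.6 against 40.0 and 42.3, and COL21A1 27.0 and 17.3 against 29.6 and 49.1. COL22A1, found at tissue junctions and the FACIT gene with the most regions, had 26 regions, 3 gained and 8 in DMSO replicate 1 alone, and scored 20.0 and 7.96 against 23.9 and 32.1. COL9A3 was the FACIT gene that overlapped, with 3.87 and 0.820 against 3.58 and 13.2.

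Type IV collagen, the scaffold of the basement membrane on which pancreatic epithelium lies, had 24 gained regions of 82 (29.3%), 2 lost and 5 in all 4 lists. Of its 6 genes, 5 were higher, with a median difference of 21.7 points. COL4A6 scored 12.7 and 3.39 with DMSO and 42.3 and 42.4 with I-BET151, with 9 gained regions of 20, the most of any collagen. COL4A3, COL4A4 and COL4A5, the chains of the glomerular basement membrane, scored 11.7 and 0, 14.0 and 6.56, and 12.3 and 9.68 with DMSO. Their I-BET151 scores were 24.4 and 27.7, 29.3 and 37.6, and 32.2 and 36.1. All 3 therefore lay apart from their controls. COL4A2 scored 4.87 and 1.85 against 14.2 and 29.8, with 7 gained regions of 23. Its neighbour COL4A1 overlapped, at 27.3 and 12.5 against 16.0 and 30.8, with 4 gained and 1 lost region of 19.

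**Figure D2:**
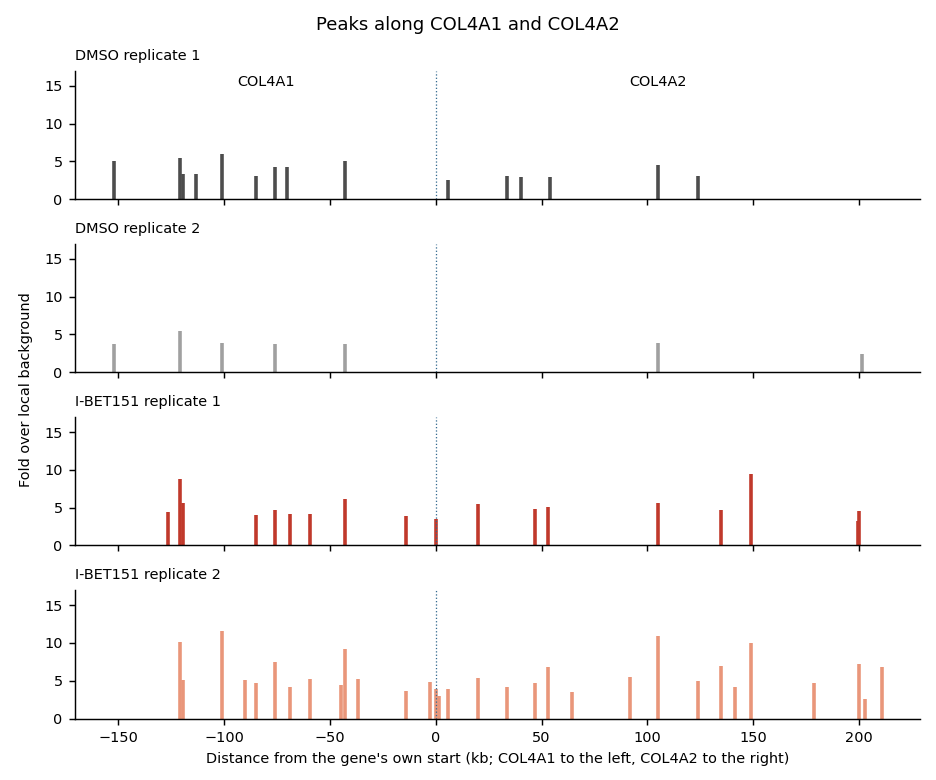
Fold over the local background (vertical axis) of every peak along COL4A1 (left) and COL4A2 (right) in each library, by distance in kb from the start of the gene. The peak at the shared start appears in both I-BET151 libraries, with folds of 3.44 and 3.88, and in neither DMSO library, and COL4A2 intron 20 shows the same pattern at folds of 9.49 and 9.99.

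Most of the remaining network and membrane collagens also had separate, higher scores with I-BET151. COL10A1, the collagen of hypertrophic cartilage, had the largest difference among genes with at least 2 regions, at 43.0 points, with no DMSO peak at its 3 regions and scores of 34.3 and 51.6 with I-BET151. All 3 regions also lay near NT5DC1, upstream of the canonical COL10A1 start (−18730 to −29583 bp), so none can be assigned to COL10A1 alone. The difference was 15.5 with a −log10 p of at least 10, where that of COL24A1 was 35.7, and 21.8 within 50 kb, and with equal numbers of peaks no region was left. COL17A1, a hemidesmosome protein that ties epithelium to its basement membrane, scored 9.96 and 3.34 against 34.2 and 51.7, although its promoter had a peak in DMSO replicate 1 alone. COL13A1, which acts at the neuromuscular junction, scored 2.86 and 0.769 against 23.6 and 44.7, and COL25A1 17.8 and 5.35 against 29.6 and 40.6, with 8 gained regions of 27. COL18A1 of the vascular and epithelial basement membrane scored 5.36 and 2.26 against 21.9 and 33.4, with 6 gained regions and 1 lost region of 16. COL15A1, its relative, scored 17.9 and 7.55 against 18.3 and 44.2, a gap of 0.400 points. COL8A1 overlapped, with 29.7 and 5.21 against 26.5 and 42.2. COL7A1, the anchoring fibril of skin, had a single region, called only in I-BET151 replicate 2 with a percentile of 12.0. The 6 genes not yet described all had separate, higher scores, with differences of 10.8 points at COL20A1, 14.5 at COL11A2, 16.7 at COL8A2, 21.2 at COL2A1 and COL28A1 and 23.0 at COL27A1. The gap between conditions was narrow at COL20A1, with 0.373 and 0 against 3.28 and 18.8, and at COL11A2, with 2.13 and 0 against 5.66 and 25.5. It was also smaller than the distance between replicates at COL28A1, with 33.2 and 14.2 against 38.5 and 51.2.

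Type VI collagen had 5 genes and 18 regions, of which 4 were gained (22.2%), 3 lost (16.7%) and 0 called in all 4 lists. Promoters were gained at 2 of the 5 genes, whereas the median score difference was −3.10 points and 4 genes overlapped. COL6A6 scored 24.4 and 4.63 with DMSO and 9.45 and 13.4 with I-BET151, with 2 lost regions, 1 of them upstream of its start (−452 bp) with folds of 3.44 and 3.02. COL6A3 scored 41.9 and 0 against 6.01 and 9.41, and COL6A5 29.9 and 0 against 0 and 0. In each case the high value was that of DMSO replicate 1, and the other DMSO library lay at or below both I-BET151 libraries. COL6A1 was the type VI gene with higher scores, at 3.94 and 0 against 9.37 and 26.3, and COL6A2 had 14.5 and 0.0405 against 6.84 and 10.5. At all 5 genes DMSO replicate 2 scored at or below both I-BET151 libraries. Without DMSO replicate 1, 42 of the 43 collagens that kept a region were higher and 0 lower. The DMSO list then left was the shortest, with 38295 peaks. Neither the share over all genes nor the median of this class was computed in that setting.

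COL23A1, a transmembrane collagen, held opposite changes within a single gene. Of its 28 regions 4 were lost, 2 gained, 3 called in all 4 lists and 11 in DMSO replicate 1 alone, and its scores overlapped, at 23.8 and 8.18 against 15.8 and 18.5. COL26A1 was similar, with 28 regions, of which 12 were called in DMSO replicate 1 alone, 2 lost and 3 gained, and scores of 25.2 and 3.17 against 11.2 and 16.0. Across the family, 80 regions were called in DMSO replicate 1 alone, 16.8% against 17.1% of all regions near protein-coding genes, and 5 in DMSO replicate 2 alone.

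The 17 lost regions lay at 12 genes, with DMSO folds from 2.31 to 6.47 and a median lower fold of 3.10. They were at COL5A2, COL4A1, COL4A4, COL5A3, COL9A3, COL15A1, COL18A1, COL19A1 and COL6A2 with 1 region each, COL6A6 and COL26A1 with 2 and COL23A1 with 4. COL5A2 intron 6 had the highest lower fold, with folds of 6.47 and 5.19 and percentiles of 91.6 and 74.1 in the DMSO lists. The COL26A1 intron 3 region had folds of 4.80 and 4.39, COL4A1 intron 50 had 4.98 and 3.71, COL23A1 intron 2 had 3.64 and 3.90, and COL4A4 intron 1 had 4.66 and 3.61. The sequences of these 5 follow, since they are the lost collagen sites with the highest lower fold. COL5A2 held a GATA match, COL26A1 an ONECUT match and COL4A4 an E-box. In the COL23A1 sequence a run of 41 bases occurs at both ends. Leaving out DMSO replicate 2 made a peak in DMSO replicate 1 enough for a lost call where I-BET151 had none. The number of lost regions was then 97 (20.6% against 19.7% of all regions). With a −log10 p of at least 10 it was 1, and with equal numbers of peaks per list it was 8 (4.40% against 5.33%).
COL5A2 intron 6, chr2:189096954-189097054: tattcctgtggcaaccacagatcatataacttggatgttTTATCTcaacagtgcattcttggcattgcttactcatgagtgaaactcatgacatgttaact
COL26A1 intron 3, chr7:101461777-101461877: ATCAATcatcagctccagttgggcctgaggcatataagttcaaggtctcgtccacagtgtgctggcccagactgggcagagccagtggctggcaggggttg
COL4A1 intron 50, chr13:110155063-110155163: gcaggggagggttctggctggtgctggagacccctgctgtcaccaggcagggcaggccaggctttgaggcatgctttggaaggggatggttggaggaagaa
COL23A1 intron 2, chr5:178525490-178525590: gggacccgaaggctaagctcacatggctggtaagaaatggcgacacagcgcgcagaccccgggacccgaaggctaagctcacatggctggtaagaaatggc
COL4A4 intron 1, chr2:227153915-227154015: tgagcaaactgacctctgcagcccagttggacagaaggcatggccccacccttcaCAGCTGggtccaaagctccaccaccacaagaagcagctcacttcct

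Leaving out I-BET151 replicate 1 made a peak in I-BET151 replicate 2 enough for a gained call where DMSO had none. The gained count was then 223 (50.9% against 41.9% of all regions). With equal numbers of peaks per list it was 29 of 182 (15.9% against 8.62%). Its share stood above that of all regions near protein-coding genes in each of the 9 settings for which both were computed. Collagen genes are long, with a median length of 145 kb against 27.5 kb over all protein-coding genes, and 382 of the 477 regions were intronic. Away from promoters, 109 of 438 collagen regions were gained, 24.9% against 17.3% of such regions near all genes. At promoters of any protein-coding gene, 14 of 39 were gained, 35.9% against 11.1%.

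For the 44 collagen regions called in all 4 lists, ranks were compared with limma on normal scores over all 25627 such regions. Of the 44, 2 were raised, against 3.41% of all regions, and 1 was lowered, against 1.96%, both at a Benjamini-Hochberg adjusted p under 0.05. An unadjusted p under 0.05 was found for 13 of 44, against 24.9% of all. The median difference of normal scores was −0.03 over the collagen regions and −0.03 over all, and 21 were positive and 23 negative. Both raised regions were in COL23A1. The region in intron 2, 115612 bp from the start, had folds of 3.60 and 3.34 with DMSO and 10.8 and 12.9 with I-BET151, at percentiles 36.6 and 23.5 against 91.2 and 94.3, a difference of 1.90 ± 0.38 (SE) in normal score with a limma adjusted p of 0.0145. The region in intron 5 had folds of 3.65 and 3.89 against 10.3 and 13.1, at percentiles 40.8 and 45.0 against 89.5 and 94.7, a difference of 1.53 ± 0.39 (SE) with a limma adjusted p of 0.0377. Its pileup was 26 and 28 reads against 26 and 49, and relative to the shift of all regions its pileup per M reads differed by −0.11 on the log2 scale, so that the direction by pileup was opposite to that by fold, while the intron 2 region differed by 0.28. COL19A1 intron 16 was lowered, with percentiles 97.1 and 83.4 against 50.2 and 83.2, a difference of −1.54 ± 0.42 (SE) with a limma adjusted p of 0.0459. Its I-BET151 replicate 2 value lay almost at that of DMSO replicate 2. Leaving out either DMSO library, no collagen region was called in either direction, but the spread then came from the I-BET151 libraries alone and calls over all regions also fell, from 875 raised and 503 lowered to 117 and 119 without DMSO replicate 1 and to 308 and 177 without DMSO replicate 2. With ranks by −log10 p none was called.
COL23A1 intron 2, chr5:178474731-178474831: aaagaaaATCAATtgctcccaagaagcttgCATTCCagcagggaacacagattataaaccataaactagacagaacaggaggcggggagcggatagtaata
COL23A1 intron 5, chr5:178280187-178280287: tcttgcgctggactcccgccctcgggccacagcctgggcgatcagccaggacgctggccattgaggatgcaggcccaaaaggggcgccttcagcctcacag
COL19A1 intron 16, chr6:70119622-70119722: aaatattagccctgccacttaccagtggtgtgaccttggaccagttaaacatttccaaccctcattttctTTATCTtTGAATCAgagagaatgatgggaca

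The sequences show the 3 regions called by limma. The raised intron 2 region held an ONECUT and a TEAD match, the lowered COL19A1 region an AP-1 and a GATA match and the intron 5 region none. Close to the threshold but not past it were the COL1A1 region (limma adjusted p = 0.0591), the COL5A1 promoter (limma adjusted p = 0.0613) and another COL23A1 intron 2 region (limma adjusted p = 0.0620), each with a higher percentile with I-BET151 in both libraries. These percentiles are by fold. The promoter pileups, not scaled by depth, were 33 and 32 reads against 24 and 59 at COL1A1, and 34 and 34 against 20 and 48 at COL5A1. The COL23A1 region differed by 0.41 in log2 pileup per M reads relative to the shift of all regions. By that measure 0 collagen regions were raised. The shared collagen region with the highest mean percentile was COL19A1 intron 17, with percentiles of 97.3 and 92.8 with DMSO and 99.7 and 99.6 with I-BET151. It was followed by COL24A1 intron 37, at 93.7 and 90.3 against 98.2 and 99.8, and a COL21A1 region upstream of the canonical start (−134487 bp), at 98.0 and 89.2 against 97.3 and 96.8. COL9A1 intron 29 had 93.7 and 84.6 against 97.8 and 95.2, and COL11A1 intron 57 had 98.0 and 90.3 against 80.5 and 98.0. None of these 5 passed the limma test.

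**Figure D3:**
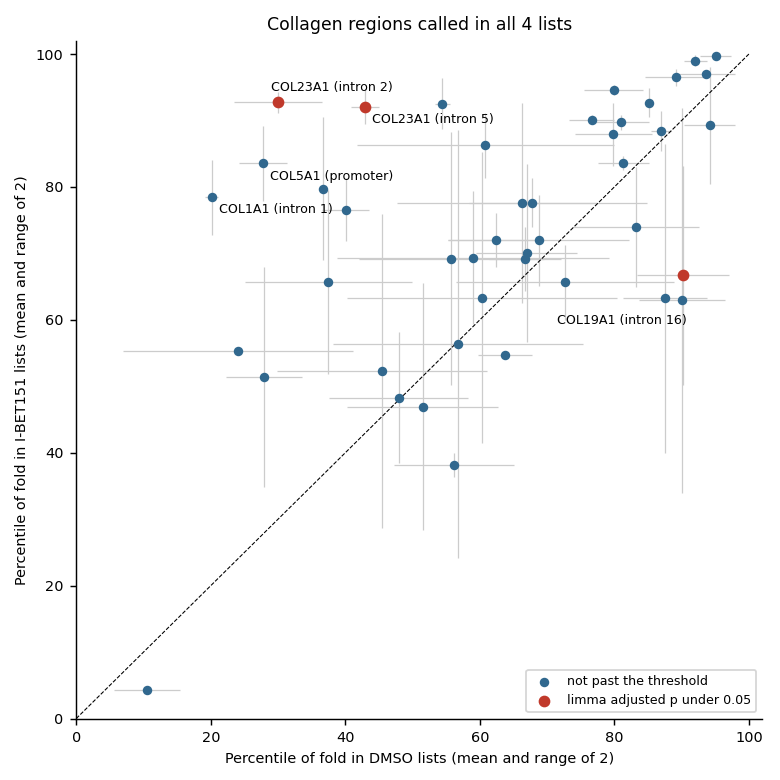
Percentile of fold with DMSO (horizontal) and with I-BET151 (vertical) for the 44 collagen regions called in all 4 lists, with points at the mean of 2 libraries, lines for their range and the dashed line of equality. The red points are the regions past the limma threshold, both COL23A1 regions above the line and the COL19A1 region below it.

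Motif letters were counted within 100 bp of the summit of each region, on both strands. Among gained collagen regions 8.13% held the CTCF consensus, 10 of 123, against 4.36% of all gained regions near protein-coding genes. ONECUT letters were at 5.69% against 11.8%, AP-1 at 6.50% against 9.27% and TEAD at 17.9% against 14.9%. GATA and homeobox letters were near the background, at 15.4% against 15.8% and 4.88% against 5.23%, and FOXA and E-box were at 3.25% against 5.11% and 10.6% against 14.1%. In the 44 regions called in all 4 lists GATA letters were at 34.1% against 1664 of 18489 regions, AP-1 at 25.0% against 8.98%, TEAD at 22.7% against 12.1% and the homeobox core at 11.4% against 2.49%. Promoters made up 20.5% of these collagen regions and 51.5% of all regions called in the 4 lists near protein-coding genes, and the median GC content of the shared regions was 51.2% against 60.2%, so that the shared sets differ in makeup. The 17 lost regions had a median GC content of 57.7%, and each motif was found in at most 2 of them.

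A list of 59 genes held those whose products process, bind or degrade collagen and 15 other components of the basement membrane, mostly laminin chains. Of their 484 regions 79 were gained (16.3%) and 18 lost (3.72%), 25 of 59 had higher scores (42.4%, against 50.8% of all genes) and 3 lower, and the median difference was 9.60 points against 10.6. The share of gained regions was close to the 16.4% of all regions, whereas the collagens stood above it, and the difference between the lists was not tested. Promoters had peaks in all 4 lists at 30 of 59 genes and were gained at 11 (18.6%, against 7.07% of all genes). SERPINH1, the collagen chaperone HSP47, had no DMSO peak and scored 15.4 and 13.7 with I-BET151, with a gained promoter. BMP1, which removes the C-terminal propeptide of fibrillar procollagens, scored 8.67 and 6.97 against 12.3 and 35.4, also with a gained promoter. P4HA1, a subunit of prolyl 4-hydroxylase, overlapped at 48.2 and 42.4 against 45.2 and 44.4. Lower scores were found at LOX, the cross-linking oxidase, with 37.9 and 41.5 against 25.3 and 36.6, and at the blood cell receptors GP6 and LAIR1. Among the 15 other basement membrane genes 6 were higher (40.0%, below the 50.8% of all genes) and 0 lower, and the largest difference was at LAMB2, a laminin chain, with 12.8 and 12.2 against 84.0 and 68.1. The collagen receptor DDR2 was higher, at 20.5 and 11.6 against 33.0 and 27.5, and DDR1 overlapped.

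Markers of cell types that could make collagen were read beside these results. Of 10 pancreatic progenitor genes, 7 had promoter peaks in all 4 lists, NKX6-1, SOX9 and FOXA2 among them, and the promoter of PDX1 was gained. PTF1A had no promoter peak, and ONECUT1 had a promoter peak in DMSO replicate 1 and both I-BET151 lists. Scores were higher at 4 of the 10 (40.0%) and lower at 0, with a median difference of 10.8 points. The mesenchymal list of 8 had 4 of 7 genes with a region higher (57.1%) and 0 lower, with a median difference of 13.8 points, and its median score was 12.3 and 3.63 with DMSO and 18.5 and 25.4 with I-BET151. PDGFRA, TWIST1 and VIM had promoter peaks in all 4 lists, and PDGFRB and PRRX1 had gained promoters. TCF21 had a promoter peak in DMSO replicate 1 alone, FOXF1 had no promoter peak, and THY1 had no region. The endothelial list of 5 had 1 gene higher, CDH5, and 0 lower, with median scores of 18.6 and 4.86 against 16.1 and 32.6. Over all genes 50.8% were higher and the median difference was 10.6 points. Whether cells of these types had a part in the collagen result was not tested.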

How the data were processed

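ATAC-seq was done on 4 libraries of pancreatic progenitors (2 with DMSO, 2 with I-BET151, grouped by their labels). Per the methods and the submitters' processing notes, the authors mapped the libraries to hg38 (Bowtie2 2.2.5), discarded duplicate and mitochondrial reads and ran MACS2 2.1.2 separately for every library. The deposited lists give the fold over local background (a ratio), −log10 p-values and −log10 q-values, and a score that was not used. Peaks reach a q-value of 0.05, whereas the methods state a p-value of 1e-05, and 7.54% to 10.9% of each list lie above that. Pileup and local background were solved from the fold and the p-value for 100.0% of peaks in every list. Read depth was then estimated from the lowest background, assuming the default genome size of MACS2 and the shortest peak of each list as the fragment length. Numbers of reads per library limit which weak peaks can be called, and 8 to 62 reads at the gained promoters carry counting error beside the spread of 2 libraries.

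Autosomal (1 to 22), X and Y peaks were merged at 1 bp of overlap and assigned to GENCODE release 44 genes with Python 3.11.15, numpy 2.4.6, scipy 1.17.1, pandas 2.3.3 and pysam 0.24.0. Ranks were tested with limma 3.58.1 (R 4.3.3) on normal scores, with Benjamini-Hochberg adjustment over all regions called in 4 lists. Both scripts were tested on simulated data. The genes named were the 10 with the largest score difference that did not overlap and had at least 2 regions, those with a region called by limma, a lost region, or a promoter gained, lost or in all 4 lists, and in each class the gene with the most regions. Regions given in full were those called by limma, the 5 gained and the 5 lost ones with the highest lower fold of the 2 libraries, and the 5 shared ones with the highest mean percentile. COL3A1, COL6A3, COL6A5 and the 6 genes given mainly by their difference were singled out after their values were seen. So were the partner and marker genes quoted. The members and lists were chosen with earlier results of these data known. The alternatives were thresholds of −log10 p, equal peak numbers, 50% overlap, other windows, leaving out each library, the replicate block and scaled pileup. Alternatives for promoter counts, the crossed pairing and the centred pileup were added after seeing the data. Replicate numbers come from the labels, which do not say what they share.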

Additional observations from a re-analysis of the deposited data

How the results depend on the processing

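Counts of collagen regions and genes moved with the number of peaks kept. With a −log10 p of at least 10, 63 regions were gained, 1 lost, 0 raised and 0 lowered, and 5 promoters were gained. With equal numbers of peaks per list, 29 regions were gained, 8 lost, 5 raised and 0 lowered, and 0 promoters were gained. The lost share was then 4.40% against 5.33% of all regions near protein-coding genes. The median score difference was 5.16, and 14 of the 37 genes that kept a region were higher and 6 lower. COL11A1 then had a difference of −5.54. With a −log10 p of at least 5, 10 regions were lost. Within 50 kb of the genes, 26 were lost, 4 raised and 2 lowered, and 1 gene had lower scores. With ranks by −log10 p 0 were raised and 0 lowered. With log2 pileup per M reads, in which all regions shift by 1.90, 44 were raised and 0 lowered, and after centring on that shift 0 were raised and 1 lowered.

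Leaving out each library in turn gave 132 to 223 gained regions, 17 to 97 lost, 0 to 5 raised and 0 to 4 lowered, 15 to 18 gained promoters, 8 to 13 promoters in all lists, 32 to 42 genes higher and 0 to 7 lower, and median differences from 13.5 to 25.2. Without DMSO replicate 1 and without DMSO replicate 2, 0 regions were raised and 0 lowered. In these fits the lone library of a group was assumed to vary like the other group. Leaving out a library also loosens the rules for gained, lost, higher and lower, so those counts could hardly fall. Without I-BET151 replicate 1, 5 were raised and 0 lowered, and without I-BET151 replicate 2, 2 and 4. Under a replicate block 2 regions were raised and 2 lowered and the median difference stayed at 17.9. The deviations of libraries that share a number had a correlation of −0.143, and with the pairing crossed 5 were raised and 3 lowered. Of 117 values for the 10 genes of largest difference, 97 moved by less than the spread between replicates, 19 by more and 1 reversed. Another 3 had no region left and gave no value, COL10A1 and COL16A1 with equal numbers of peaks and COL10A1 without regions near other protein-coding genes. The causes of these shifts were not tested. Peaks that were not called have no value in the lists, so weak accessibility below each threshold could not be measured.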
